A study of Mus musculus with 18 samples.

Results

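Among alphaTC1 cells carrying a short hairpin RNA against Smndc1, cells in which an insulin-promoter reporter was on were compared with cells in which it was off, in 8 of the 18 RNA-seq libraries of the series. AlphaTC1 is a mouse pancreatic alpha cell line that makes glucagon. The 8 libraries are all those of the groups shSmndc1_RIP_pos (4 libraries) and shSmndc1_RIP_neg (4 libraries), and libraries with the same replicate number were treated as pairs. Both groups had been transduced with the Smndc1 shRNA and with RIP-mCherry, a red fluorescent protein under the control of the rat insulin promoter, and were sorted on mCherry fluorescence into positive and negative cells. Beside them stand 4 EV_RIP libraries, from cells with the empty vector and the same reporter, whose labels do not say whether they passed the sorter. The remaining 6 libraries come from unsorted cells without the reporter, taken 5 days after transduction with the empty vector (EV, 3 libraries) or the Smndc1 shRNA (shSmndc1, 3 libraries). The labels give no day for the reporter experiment and do not say that replicates were separate cultures, and p-values therefore reflect library-to-library spread, part of which may be technical.

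Pancreatic alpha cells secrete glucagon, which raises blood glucose, and beta cells secrete insulin, which lowers it. The 2 cell types share much of their regulatory machinery, and alpha cells normally keep the insulin genes silent. Smndc1 (survival motor neuron domain containing 1, also called SPF30) is a spliceosome protein with a Tudor domain that takes part in assembling the spliceosome on the branch site. A reporter driven by the insulin promoter marks those cells of the knockdown culture in which an insulin promoter is active, whatever else differs between the sorted cells.

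Sequencing depth was uneven in the negative cells. Total gene counts were 38869563, 80757285, 8084574 and 23744051 in negative replicates 1 to 4, against 34045268 to 48138634 in the positive libraries and 49345067 to 103048766 in EV_RIP. Rn7sk, the 7SK small nuclear RNA, which has no poly(A) tail and should be scarce in a poly(A) library, stood at 4.52, 18.6, 161 and 45.4 CPM (counts scaled to library size) in negative replicates 1 to 4, while positive libraries held 2.44 to 4.68 CPM and EV_RIP libraries 5.24 to 14.2 CPM. Histone transcripts were at 10.1 CPM in both negative replicates 3 and 4 and at 2.14 to 5.88 CPM in the positive libraries. The mitochondrial share of counts overlapped, at 2.99% to 3.94% in negative and 3.07% to 4.60% in positive cells. Negative replicates 3 and 4 therefore differ from the other libraries in depth and in transcripts without a poly(A) tail, and the part of these differences in the results below was not tested beyond the values given without those libraries. Negative replicate 2, the deepest sorted library, also held more Rn7sk (18.6 CPM) than any positive or EV_RIP library. Results in pairs 1 and 2 alone are therefore not free of this difference.

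**Figure D1:**
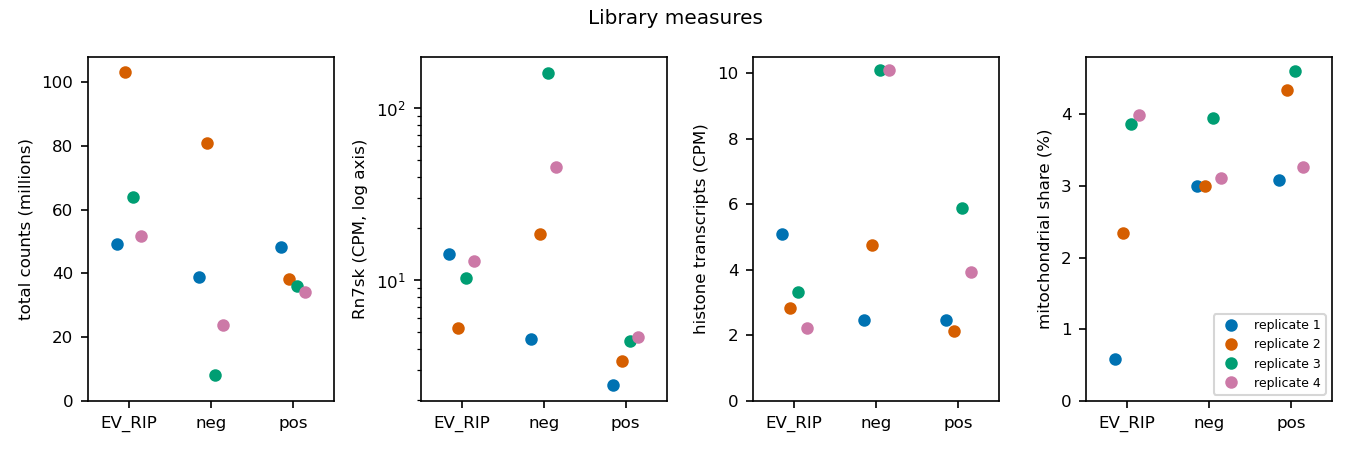
Total counts, Rn7sk (CPM, log axis), histone transcripts (CPM) and mitochondrial share of counts (%) for each of the 12 reporter libraries, 1 point per library and colour by replicate number. Negative replicate 3 has the fewest counts (8084574) and the highest Rn7sk level (161 CPM), and the positive libraries lie close together in both.

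Reporter-positive cells held more of both hormone transcripts, insulin and glucagon, and less of a broad set of stress transcripts than the negative cells of the same replicate number. Of 17994 genes tested, 667 were higher in positive cells (3.71%) and 850 were lower (4.72%) at an adjusted p under 0.05 (edgeR quasi-likelihood test with the replicate number as a block, Benjamini-Hochberg adjustment). Most of these differences were modest, with a median absolute log2 fold change of 0.58 among genes that passed, and 103 higher and 212 lower genes differed by more than 1 on the log2 scale. Over all genes tested the median log2 fold change was -0.0051. The calls rest on the pairing: edgeR without the block called 0 genes in either direction, although 1033 higher and 1198 lower genes had an unadjusted p under 0.05. The 1517 calls in either direction make up 8.43% of the genes tested. With the block, DESeq2 called 819 higher and 987 lower genes. All genes called by edgeR with the block kept their sign without it. Both fits use the same 8 libraries in a balanced design, so this was nearly fixed in advance and is no separate support. The counts also leaned on replicate 2, without which 90 higher and 182 lower genes passed. Leaving out each replicate number in turn, 89 higher and 177 lower genes passed every time.

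Ins2, one of the 2 mouse insulin genes (ENSMUSG00000000215, chr7:142678656-142743381, minus strand, GRCm38), was at 5.13, 2.33, 1.92 and 1.59 CPM in negative replicates 1 to 4 and at 13.7, 13.5, 6.89 and 6.12 CPM in positive replicates 1 to 4. Every positive library lay above every negative one, and EV_RIP libraries were at 2.06, 3.38, 1.00 and 0.517 CPM. Ins2 rose 3.86-fold (log2 fold change 1.95, SE 0.20, adjusted p = 0.000141 with edgeR). The gate selected on an insulin-promoter reporter, so this difference bears on the sort rather than being independent of it. The level stayed low for a hormone gene: per length, the mean FPKM (fragments scaled to gene length and depth) in positive cells was 7.65 for Ins2 and 14654 for Gcg. A mean over a bulk library cannot tell more insulin transcript in each cell from more cells that have it, and the same holds for every difference below.

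Ins1, the other insulin gene (chr19:52264297-52265476), gave 0, 30, 0 and 22 counts in the negative libraries and 11, 47, 6 and 74 in the positive ones. Ins1 passed as well (log2 fold change 1.81, SE 0.46, adjusted p = 0.0266 with edgeR), higher in 4 of 4 pairs, while the groups overlapped. A count of 0 allows up to 3 counts, so the size of this change is loose, and Ins1 was too low to be tested without replicate 2 or without replicate 4. Ins1 and Ins2 are related copies, and how the counting treated reads that match both is not known here.

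Gcg, the glucagon gene (ENSMUSG00000000394, chr2:62474530-62483650, minus strand), was at 12012, 8772, 7657 and 8554 CPM in negative and at 15394, 19410, 14361 and 14746 CPM in positive replicates 1 to 4. The groups did not overlap, and negative replicates 2 to 4 lay in the range of EV_RIP (6382 to 11042 CPM). Gcg was 1.74-fold higher in positive cells (log2 fold change 0.80, SE 0.13, adjusted p = 0.00223 with edgeR). Pair 1 differed least, by 0.35 on the log2 CPM scale, and pair 2 most, by 1.15. The cells with the active insulin reporter thus held more, not less, glucagon transcript. In pairs 1 and 2 alone, without the negative libraries with most Rn7sk, Gcg did not pass (adjusted p = 0.209), and in a fit that added EV_RIP its adjusted p was 0.0596.

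The promoters of Ins1 and Gcg are shown because the transcripts of both hormone genes rose together in the cells sorted on an insulin promoter. Both are the 250 bases before the RefSeq start on GRCm38.p6, printed on the gene's strand. Capitals mark GCCATCTG, an E-box of the insulin promoter, in Ins1, and TATAAA on either strand in Gcg. These 2 motifs were chosen after values had been seen. Ins1 lies at chr19:52264047-52264296 (plus strand) and Gcg at chr2:62483654-62483903 (minus strand). Ins2 has no entry in the promoter table.
Ins1: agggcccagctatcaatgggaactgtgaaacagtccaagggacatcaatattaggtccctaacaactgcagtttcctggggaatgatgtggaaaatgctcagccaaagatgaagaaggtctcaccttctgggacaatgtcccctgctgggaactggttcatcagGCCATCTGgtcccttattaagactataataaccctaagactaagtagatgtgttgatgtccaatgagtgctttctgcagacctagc
Gcg: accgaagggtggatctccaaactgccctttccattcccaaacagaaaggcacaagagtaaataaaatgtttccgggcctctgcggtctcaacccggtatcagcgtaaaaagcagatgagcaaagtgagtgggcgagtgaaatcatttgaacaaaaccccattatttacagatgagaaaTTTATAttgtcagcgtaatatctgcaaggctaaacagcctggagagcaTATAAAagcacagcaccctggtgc
The E-box letters begin 86 bases before the Ins1 start. On either strand, GCCATCTG is found in 1.27% of the 27025 genes with a promoter in the table and TATAAA in 14.3%. Among tested genes with a promoter the shares are 1.02% and 8.06%, and among genes higher in positive cells 0.877% and 8.33%.

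Smndc1 itself, the target of the shRNA (ENSMUSG00000025024, chr19:53379390-53390578), was at 23.8, 43.4, 36.3 and 44.5 CPM in negative and at 16.6, 22.4, 16.0 and 25.2 CPM in positive replicates 1 to 4. In each pair the positive library was lower, and only negative replicate 1 fell within the range of the positive libraries. Smndc1 was 1.82-fold lower in positive cells (log2 fold change -0.86, SE 0.12, adjusted p = 0.000954 with edgeR). The EV_RIP libraries were at 37.6, 54.9, 39.2 and 46.2 CPM, so 2 of the 4 negative libraries lay within the range of cells with the empty vector, and all positive libraries lay below it. In unsorted cells, Smndc1 was lower in shSmndc1 than in EV (log2 fold change -1.94, adjusted p = 0.00145 with edgeR).

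Spp1 (osteopontin, a secreted phosphoprotein of matrix and ducts) was at 15.7, 18.0, 4.08 and 15.6 CPM in negative and at 38.1, 72, 28.1 and 33.9 CPM in positive replicates 1 to 4. All positive libraries lay above all negative ones, and EV_RIP libraries were at 1.86 to 10.7 CPM. Spp1 rose 3.20-fold (log2 fold change 1.68, SE 0.19, adjusted p = 0.000304 with edgeR). It was the only one of 7 tested duct and progenitor markers that passed, out of 12 in that list, beside 3.71% of all genes higher. The list thus did not move with Spp1. Krt7, a duct keratin, was at 5.33 ± 1.73 CPM (SD, n = 4) in negative and 4.96 ± 2.64 CPM (SD, n = 4) in positive cells and did not pass. In its exons, Spp1 shares 18.8% of bases with another gene on the same strand. In the fit that added EV_RIP its adjusted p was 0.0870.

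**Figure D2:**
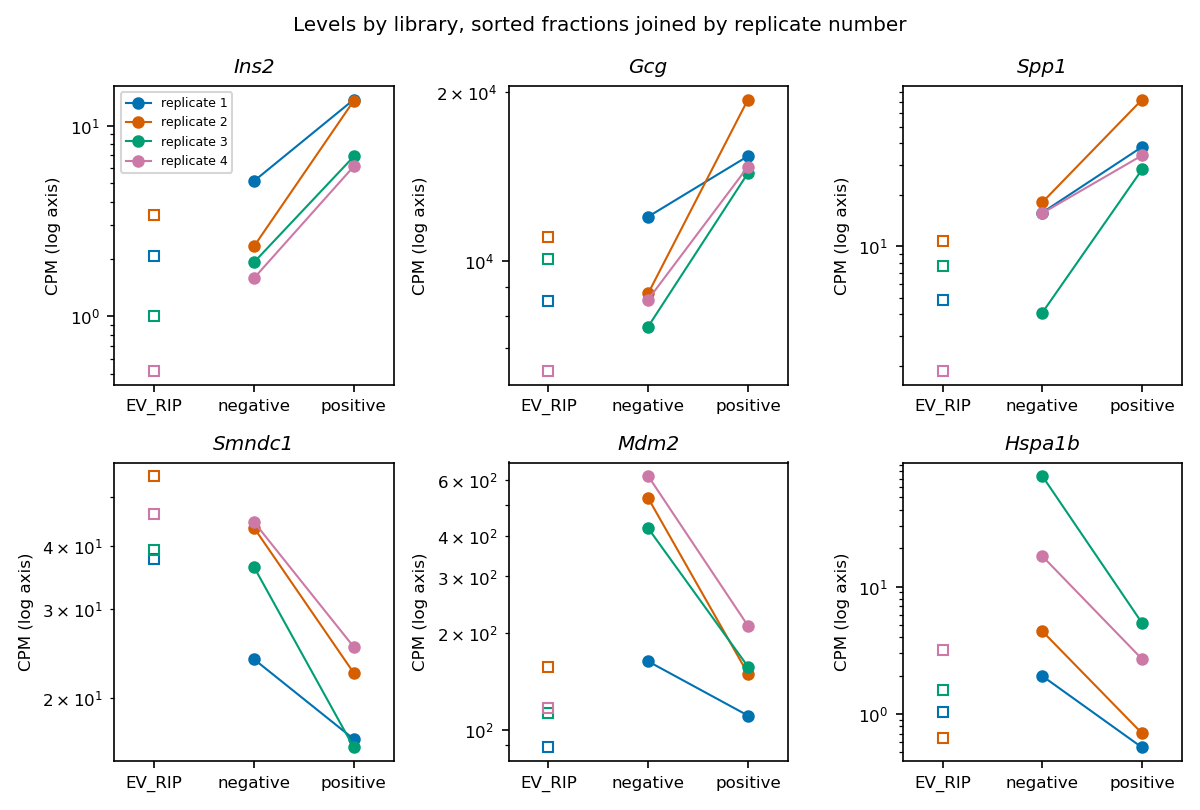
Levels (CPM, log axes) of Ins2, Gcg, Spp1, Smndc1, Mdm2 and Hspa1b in the 12 reporter libraries, with lines joining negative and positive libraries of the same replicate number and open squares for EV_RIP. Every line rises for Ins2, Gcg and Spp1 and falls for Smndc1, Mdm2 and Hspa1b.

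Among genes that mark beta cells, 4 of the 9 tested rose and none fell, with a median log2 fold change of 1.03, against 3.71% of all genes higher. The list has 18 genes. Besides Ins1 and Ins2, the members that rose were G6pc2 and Trpm5. The count and the median include both insulin genes, which bear on the promoter used for the sort. Summed over the list, levels overlapped, at 273 to 558 CPM in negative and 356 to 518 CPM in positive libraries. The sum was lower in the positive library in pairs 1 and 3 and higher in pairs 2 and 4. G6pc2, the islet form of glucose-6-phosphatase, was at 27.8, 16.5, 17.9 and 9.05 CPM in negative and 51.7, 53.5, 22.4 and 27.9 CPM in positive replicates 1 to 4. Its groups overlapped but each pair rose (log2 fold change 1.17, SE 0.18, adjusted p = 0.00177 with edgeR), and EV_RIP libraries were at 33.7 to 45.5 CPM, within the range of the positive libraries. Trpm5, a calcium-activated cation channel, rose by 1.03 on the log2 scale (SE 0.14, adjusted p = 0.00113 with edgeR). Its groups overlapped, at 3.81 to 23.3 CPM in negative and 9.39 to 44.3 CPM in positive libraries, while each pair rose. EV_RIP libraries were at 13.5 to 34.3 CPM, within the range of the positive libraries.

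Of the beta cell transcription factors in the list, Mafa and Nkx6-1 could be tested and neither passed. Pdx1, a master regulator of the beta cell, gave 1 count over the 8 libraries and was not tested. Mafa, an activator of the insulin promoter, was at 1.26, 1.68, 1.08 and 1.59 CPM in negative and 2.06, 2.01, 3.49 and 2.38 CPM in positive replicates 1 to 4. These Mafa levels did not overlap, but the test did not call the difference (log2 fold change 0.71, SE 0.25, adjusted p = 0.0920 with edgeR). Nkx6-1, another beta cell regulator, was at 65.2 ± 12.9 CPM (SD, n = 4) in negative and 66.5 ± 12.9 CPM (SD, n = 4) in positive cells. Slc30a8, the zinc transporter of the insulin granule, had a log2 fold change of 0.11 (SE 0.12). Iapp, the amyloid peptide released with insulin, was at 0.312 ± 0.266 CPM (SD, n = 4) against 0.916 ± 0.304 CPM (SD, n = 4) and missed the threshold (adjusted p = 0.0543). Slc2a2, Ucn3 and Ffar1 were too low to be tested.

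Alpha cell genes were also higher where they changed: 6 of 13 tested rose and none fell, with a median log2 fold change of 0.26, beside 3.71% of all genes higher and 4.72% lower. Slc38a5, a glutamine transporter of alpha cells, was at 451, 277, 128 and 287 CPM in negative and 636, 593, 553 and 522 CPM in positive replicates 1 to 4, without overlap. It rose by 1.13 on the log2 scale (SE 0.18, adjusted p = 0.00240 with edgeR). In EV_RIP it was at 677 to 874 CPM in replicates 1 to 3 and at 23.1 CPM in replicate 4, a library that also stood apart in Sema3a and Lcp2. Slc7a2, an arginine transporter, rose by 0.48 (SE 0.09), Etv1, a transcription factor, by 0.52 (SE 0.11) and Pou3f4, an alpha cell transcription factor, by 0.58 (SE 0.14). All 3 lost their call without replicate 2, and Etv1 and Pou3f4 also without replicate 4. Pou3f4 was named after its values had been seen. Irx1, Irx2, Pcsk2 and Ttr did not pass, and their log2 fold changes lay between -0.15 and 0.06. Without replicate 2, 2 alpha cell genes passed.

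Beside 3.71% of all genes higher, 1 of 10 tested pan-endocrine transcription factors passed, Foxa1. It was near the detection limit, at 0.203 ± 0.219 CPM (SD, n = 4) in negative and 0.908 ± 0.268 CPM (SD, n = 4) in positive cells (log2 fold change 1.97, adjusted p = 0.0166 with edgeR), and did not pass without replicate 1 or 2. Isl1, Pax6, Neurod1, Nkx2-2 and Foxa2, the factors that islet cells share, had log2 fold changes between -0.28 and 0.28 and did not pass. Of 23 granule and exocytosis genes 3 were lower and none higher, beside 4.72% of all genes lower: Vgf (-0.71), a granule peptide precursor, Pam (-0.39), which amidates peptides, and Ptprn2 (-0.34), a granule membrane protein, and no member passed without replicate 2.

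Markers of other cell types were mostly at the edge of detection. Of the delta, PP and epsilon cell markers, 2 of 6 could be tested and neither passed. Of 12 acinar markers, 5 were tested and none passed, and 2 markers had no count in the 8 libraries. Fibroblast markers summed to 6.76 to 11.7 CPM in negative, 12.2 to 20.0 CPM in positive and 3.58 to 12.8 CPM in EV_RIP libraries. Col1a2 (log2 fold change 0.97) and Pdgfra (0.96) passed among the 4 fibroblast markers tested of 10, beside 3.71% of all genes higher. Both were lost without replicate 2, Pdgfra also without replicate 1, and their part in the other differences was not tested. Endothelial markers summed to 9.99 to 15.4 CPM in negative and 7.14 to 8.85 CPM in positive libraries. Tek (-1.60) and Pecam1 (-1.0) were lower among 6 tested of 8, beside 4.72% of all genes lower. Neither was called without replicate 2, and Tek not without replicate 3 or 4 either.

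Among genes averaging at least 5 CPM, the 15 with the largest rise in all 4 pairs were Ins2, Spp1, Speg, Islr, Aqp1, Hapln1, Vstm2l, Car13, Sema3a, Klhl4, Dse, Lcp2, Mme, Cd209c and G6pc2, with log2 fold changes from 1.17 to 1.95. Over all genes, 15.2% were higher and 16.5% lower in 4 of 4 pairs, and the groups did not overlap for 3.42% that were higher and 3.28% that were lower. Speg, a muscle-type kinase, was at 4.03, 1.93, 1.56 and 2.62 CPM in negative and 12.8, 9.44, 8.96 and 3.13 CPM in positive replicates 1 to 4. The groups of Speg overlapped only through positive replicate 4 and negative replicate 1. In Islr, an immunoglobulin-domain protein (log2 fold change 1.65), the same libraries overlapped, with positive replicate 4 at 3.07 CPM and negative replicate 1 at 4.50 CPM.

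Vstm2l was at 4.47, 2.67, 2.88 and 2.38 CPM in negative and 9.74, 8.68, 10.8 and 5.14 CPM in positive replicates 1 to 4. Vstm2l did not overlap (log2 fold change 1.43, SE 0.18, adjusted p = 0.000693 with edgeR), and EV_RIP libraries, at 2.15 to 3.06 CPM, resembled the negative cells. Dse, an epimerase that makes dermatan sulfate, was at 18.4, 15.6, 7.93 and 13.4 CPM in negative and 36.3, 36.8, 25.8 and 30.8 CPM in positive replicates 1 to 4. Dse had the smallest adjusted p of the 15 (0.000121 with edgeR, log2 fold change 1.25, SE 0.12). Aqp1, a water channel (log2 fold change 1.5), Hapln1, which links hyaluronan to proteoglycans (1.47), Car13, a carbonic anhydrase (1.35), Sema3a, a secreted guidance cue (1.31), and Mme, the peptidase neprilysin (1.20), rose too. Each of the 15 passed with any 1 replicate number left out.

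**Figure D3:**
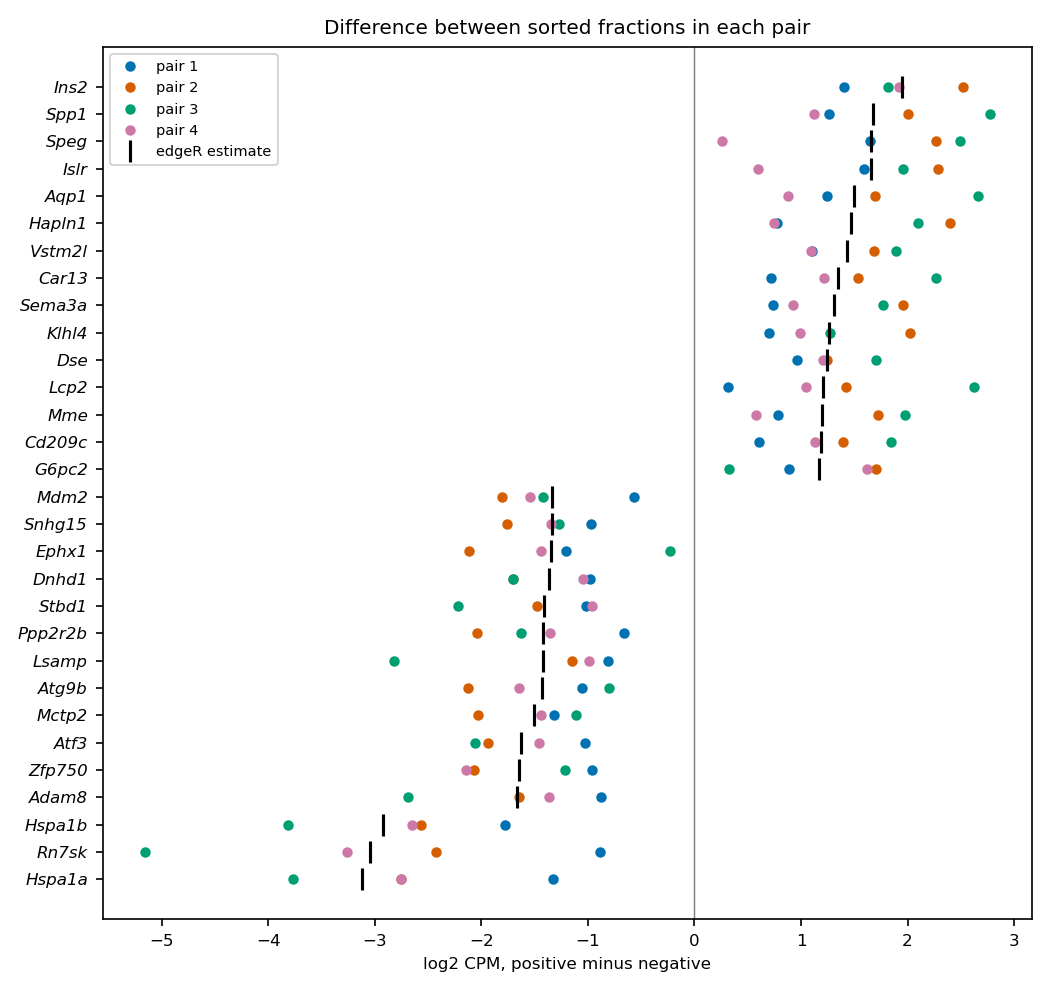
Difference in log2 CPM between positive and negative library in each of the 4 pairs, for the 15 genes with the largest rise and the 15 with the largest fall by the rule given under processing, with a black bar for the edgeR estimate. All points of the upper 15 genes lie right of 0 and all points of the lower 15 left of it, which the rule requires, and the spread is widest for Rn7sk.

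Under the same rule as for the rises, the 3 largest falls were Hspa1a, Rn7sk and Hspa1b, of which Hspa1a and Hspa1b are heat shock chaperones. Of 14 tested heat shock genes 9 were lower and none higher, with a median log2 fold change of -0.46, against 4.72% of all genes lower. Hspa1b, an inducible Hsp70 (chr17:34956436-34959238, minus strand), was at 1.99, 4.46, 73.5 and 17.3 CPM in negative and 0.547, 0.706, 5.18 and 2.7 CPM in positive replicates 1 to 4. The range was wide within both groups and the groups overlapped, while every pair fell. Hspa1b was 7.61-fold lower (log2 fold change -2.93, SE 0.24, adjusted p = 3.04e-05 with edgeR). Its neighbour Hspa1a (chr17:34969190-34972156) was at 0.445, 1.54, 28.6 and 6.51 CPM in negative and 0.147, 0.183, 2.04 and 0.919 CPM in positive libraries (log2 fold change -3.12, SE 0.29). Both were highest in negative replicates 3 and 4, where Rn7sk was also highest. In pairs 1 and 2 alone Hspa1b passed (adjusted p = 0.0246) and Hspa1a did not (0.0625).

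The other 7 heat shock genes that fell did so by less. Hsph1, an Hsp110 that exchanges nucleotide on Hsp70, was at 237, 507, 790 and 631 CPM in negative and 177, 212, 247 and 336 CPM in positive replicates 1 to 4. Its groups overlapped at negative replicate 1 (log2 fold change -1.06, SE 0.15, adjusted p = 0.00114 with edgeR). Hsp90aa1, the inducible cytosolic Hsp90, was at 1782 ± 441 CPM in negative and 1064 ± 226 CPM in positive cells (SD, n = 4 each) and fell by 0.73 on the log2 scale. Dnajb1 (-0.69), Hspe1 (-0.56), Dnaja1 (-0.46), Chordc1 (-0.45) and Hspa8 (-0.44) followed, while Hspd1 (-0.27), Hsp90ab1 (-0.29), Hspa4 (-0.18), Bag3 (-0.03) and Hspb8 (0.19) did not pass. The summed level of the list was 8734 to 12538 CPM in negative, 7377 to 8962 CPM in positive and 8336 to 9231 CPM in EV_RIP libraries. The negative libraries were thus the ones above EV_RIP, apart from negative replicate 1. Without replicate 2, 5 of the list passed, with Hspa8, Dnaja1, Hspe1 and Chordc1 lost. Dnaja1 and Chordc1 were lost without replicate 3 and Chordc1 without replicate 4. In pairs 1 and 2 alone 1 member passed.

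Promoters of 4 heat shock genes that fell are shown because they hold the letters GAANNTTC, the core of the element bound by heat shock factor, in capitals. Each is the 250 bases before the RefSeq start on GRCm38.p6, on the gene's strand: Hspa1a at chr17:34972157-34972406 (minus), Hspa1b at chr17:34959239-34959488 (minus), Hspe1 at chr1:55087898-55088147 (plus) and Dnaja1 at chr4:40722218-40722467 (plus).
Hspa1a: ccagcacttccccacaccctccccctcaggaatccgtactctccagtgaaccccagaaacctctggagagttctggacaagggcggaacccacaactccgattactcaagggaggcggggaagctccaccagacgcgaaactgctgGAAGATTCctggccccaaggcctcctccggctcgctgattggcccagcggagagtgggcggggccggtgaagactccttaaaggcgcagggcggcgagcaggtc
Hspa1b: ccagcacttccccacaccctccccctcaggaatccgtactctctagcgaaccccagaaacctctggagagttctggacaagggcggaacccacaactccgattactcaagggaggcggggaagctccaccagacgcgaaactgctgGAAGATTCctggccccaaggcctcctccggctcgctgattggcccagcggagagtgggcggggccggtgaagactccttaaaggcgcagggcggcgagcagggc
Hspe1: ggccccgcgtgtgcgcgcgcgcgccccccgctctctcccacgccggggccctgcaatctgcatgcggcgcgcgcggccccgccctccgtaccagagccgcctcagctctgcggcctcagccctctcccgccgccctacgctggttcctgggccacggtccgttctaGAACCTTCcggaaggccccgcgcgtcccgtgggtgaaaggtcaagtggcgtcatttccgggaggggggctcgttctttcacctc
Dnaja1: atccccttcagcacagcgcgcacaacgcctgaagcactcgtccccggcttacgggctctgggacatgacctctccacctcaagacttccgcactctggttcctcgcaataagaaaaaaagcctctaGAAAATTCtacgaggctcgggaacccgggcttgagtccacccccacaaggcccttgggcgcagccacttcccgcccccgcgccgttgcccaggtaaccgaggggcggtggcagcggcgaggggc
The capitals begin 104 bases before the start in Hspa1a and Hspa1b, 84 in Hspe1 and 124 in Dnaja1. The first 2 promoters differ at 3 of 250 bases, so the 2 genes are near-identical copies upstream as well, and their counts are uncertain to the extent that reads were split between them. GAANNTTC, which reads the same on both strands, was present for 6 of the 12 heat shock genes with a promoter in the table (50%), for 4 of the 7 that fell, and for 7.73% of all 27025 genes. Among tested genes with a promoter the share was 6.09%, among all that fell 6.94% and among those that rose 7.02%. A match describes these letters in this window and not a bound site.

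Targets of p53, the transcription factor activated by DNA damage and other stress, were lower in positive cells in 15 of 22 tested cases and higher in 1, with a median log2 fold change of -0.71, beside 4.72% of all genes lower and 3.71% higher. Mdm2, the ubiquitin ligase that p53 induces and that degrades p53, was at 163, 525, 424 and 615 CPM in negative and 111, 150, 157 and 211 CPM in positive replicates 1 to 4. Negative replicate 1 was the one negative library within the range of positive cells. Mdm2 was 2.53-fold lower (log2 fold change -1.34, SE 0.15, adjusted p = 0.000316 with edgeR), and pair 1 differed least, by -0.57 on the log2 CPM scale. EV_RIP libraries were at 88.3 to 157 CPM, below 4 of 4 negative libraries and overlapping the positive ones.

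Cdkn1a, the cell cycle inhibitor p21, was at 277, 693, 528 and 779 CPM in negative and 210, 241, 295 and 311 CPM in positive replicates 1 to 4. Cdkn1a overlapped at negative replicate 1 alone (log2 fold change -1.02, SE 0.14, adjusted p = 0.00115 with edgeR), and EV_RIP, at 215 to 264 CPM, lay in the positive range. Polk, a translesion polymerase (-1.09), Trp53inp1, a p53 cofactor (-1.0), Plk2, a stress kinase (-0.97), Ccng1, cyclin G1 (-0.81), Bbc3, the death inducer Puma (-0.81), and Zmat3, an RNA-binding protein (-0.81), fell as well. Eda2r, a death receptor, fell by 1.32 on the log2 scale and was lost without replicate 2 or 4. Sesn1, a sestrin, was the member that rose (0.44, SE 0.11), and it too was lost without replicate 2 or 4. Bax, Plk3, Gdf15 and Ei24 were not called, with log2 fold changes between -0.39 and -0.14. Several of these names (Eda2r, Bbc3 and Sesn1 among them) were chosen after their values had been seen. The list summed to 2020, 3947, 3503 and 4397 CPM in negative replicates 1 to 4, against 1782 to 2111 CPM in positive and 1694 to 1787 CPM in EV_RIP libraries. All negative libraries and positive replicates 2 to 4 lay above the EV_RIP range, and negative replicate 1 lay below positive replicate 4. Without replicate 2, 8 members were lower, without replicate 4, 9, and in pairs 1 and 2 alone, 0.

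Genes of the integrated stress response, which follows phosphorylation of the initiation factor eIF2, were lower in 10 of 20 cases and higher in none, with a median log2 fold change of -0.44, beside 4.72% of all genes lower. Ddit3, the transcription factor Chop, was at 37.7, 175, 246 and 237 CPM in negative and 33.5, 61.5, 61.5 and 89.4 CPM in positive replicates 1 to 4. Pair 1 hardly differed in Ddit3, and the other pairs were far apart (log2 fold change -1.28, SE 0.20, adjusted p = 0.00178 with edgeR). Trib3, a pseudokinase induced by Chop (-0.94), Nupr1, a stress-induced chromatin protein (-0.92), Ppp1r15a, which reverses eIF2 phosphorylation (-0.90), Chac1, which degrades glutathione (-0.88), and Phgdh, the first enzyme of serine synthesis (-0.72), fell too. Atf4, the factor at the head of this response, was at 600 ± 135 CPM (SD, n = 4) in negative and 500 ± 78.2 CPM (SD, n = 4) in positive cells and did not pass (adjusted p = 0.0927). Asns, Psat1, Shmt2 and Mthfd2, enzymes of amino acid and one-carbon metabolism, did not pass either. In pairs 1 and 2 alone no member was called. Of 20 endoplasmic reticulum chaperones and unfolded protein response genes, 3 were lower, beside 4.72% of all genes: Derl3 (-0.93), Hspa5, the chaperone BiP (-0.78), and Herpud1 (-0.58), of which Hspa5 was the one called with every replicate number left out.

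Immediate-early genes, which respond within minutes to stimuli, were lower in 11 of 24 cases and higher in 2, with a median log2 fold change of -0.39, beside 4.72% of all genes lower and 3.71% higher. Atf3, a stress-induced repressor, was at 25.3, 81.9, 99.3 and 114 CPM in negative and 12.5, 21.2, 23.8 and 41.5 CPM in positive replicates 1 to 4. Atf3 overlapped at negative replicate 1 (log2 fold change -1.62, SE 0.14, adjusted p = 4.13e-05 with edgeR), and EV_RIP was at 11.4 to 18.5 CPM. Jun, a subunit of AP-1, fell from 213 ± 84.8 CPM to 118 ± 52.9 CPM (SD, n = 4 each; log2 fold change -0.84), with EV_RIP at 54.8 CPM on average. Fos, its partner, was at 110 ± 47.9 CPM in negative and 85.7 ± 68.1 CPM in positive cells (SD, n = 4 each), and its call was lost without replicate 1, 2 or 3. Egr1, another early transcription factor, rose from 20.7 ± 7.32 CPM to 40.6 ± 13.7 CPM (SD, n = 4 each; log2 fold change 0.98, SE 0.19, adjusted p = 0.00646 with edgeR), in 4 of 4 pairs. The EV_RIP mean of Egr1 was 2.31 CPM, below both sorted groups. Dusp2, a phosphatase, rose by 0.91 and was lost when any 1 replicate number was left out. Fos, Egr1 and Dusp2 were named after their values had been seen. Without replicate 2, 4 of the 11 lower members passed.

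**Figure D4:**
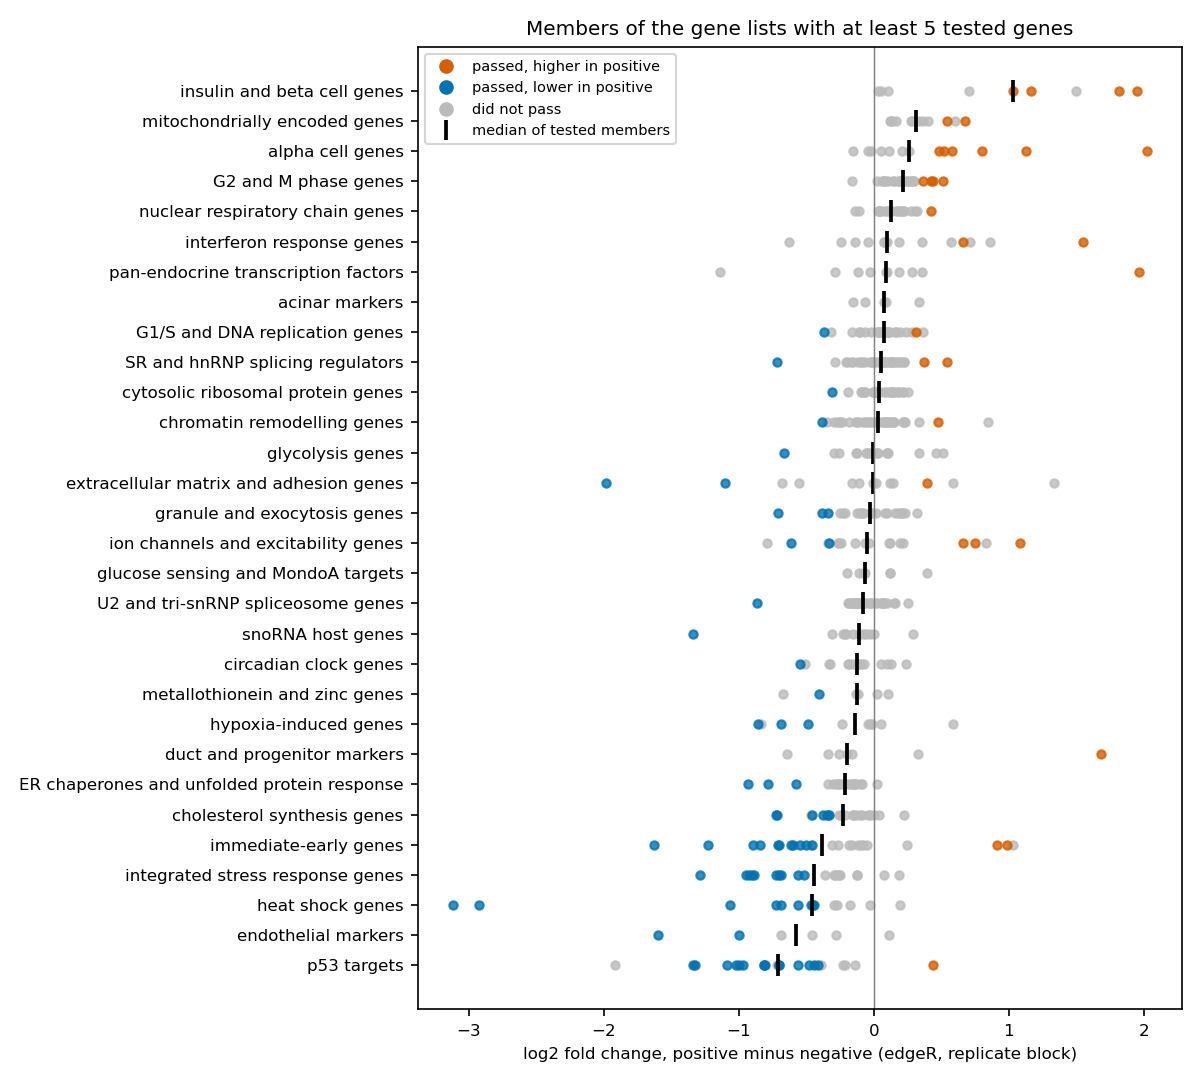
Log2 fold change (positive minus negative) of each tested member of the gene lists with at least 5 tested genes, coloured by whether it passed, with the list median as a black bar. The medians of beta cell genes (1.03) and p53 targets (-0.71) lie at the 2 ends, and most lists centre near 0. The beta cell list includes Ins1 and Ins2, which bear on the promoter used for the sort.

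The remaining strong falls came from varied genes. The 15 largest were Hspa1a, Rn7sk, Hspa1b, Adam8, Zfp750, Atf3, Mctp2, Atg9b, Lsamp, Ppp2r2b, Stbd1, Dnhd1, Ephx1, Snhg15 and Mdm2. Each of these passed with any 1 replicate number left out. Snhg15, a noncoding host gene of small nucleolar RNA, was at 45.9, 164, 154 and 220 CPM in negative and 23.5, 48.1, 63.6 and 86.2 CPM in positive replicates 1 to 4. Snhg15 and Hspa1b had the smallest adjusted p of these 15 (3.04e-05 with edgeR, log2 fold change -1.34, SE 0.11), although the groups overlapped through negative replicate 1. Snhg15 was the one of 13 snoRNA host genes that passed, beside 4.72% of all genes lower. Atg9b, an autophagy lipid scramblase, was at 43.1, 127, 41.7 and 113 CPM in negative and 20.8, 28.9, 23.8 and 36.0 CPM in positive libraries, without overlap (log2 fold change -1.43). Adam8, a membrane metalloprotease (-1.66), Zfp750, a zinc finger factor (-1.65), Mctp2, a calcium-binding membrane protein (-1.5), Stbd1, a glycogen-binding protein (-1.41), and Ephx1, an epoxide hydrolase induced by xenobiotics (-1.34), fell too. Dnhd1 shares 22.9% of its exonic bases with another gene on the same strand.

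Of 32 U2 and tri-snRNP spliceosome genes Smndc1 alone passed, and of 34 SR and hnRNP regulators 2 were higher and 1 lower, beside 8.43% of all genes called in either direction. Ptbp1, a repressor of alternative exons, was at 201, 282, 310 and 286 CPM in negative and 139, 158, 154 and 203 CPM in positive replicates 1 to 4. It fell by 0.72 on the log2 scale (SE 0.10, adjusted p = 0.00102 with edgeR), and EV_RIP libraries, at 234 to 284 CPM, lay within the negative range. Elavl4, a neuronal RNA-binding protein (0.55), and Ptbp3, a relative of Ptbp1 (0.37), were higher, and both were lost without replicate 2, Ptbp3 also without replicate 4. Among 37 chromatin remodelling genes, the SWI/SNF subunit Smarcd2 was higher (0.47) and the ATPase Smarca2 lower (-0.39), neither called without replicate 2 and Smarca2 not without replicate 4. These shares, 1 of 37 each way, are below the 3.71% and 4.72% of all genes. Atrx, a chromatin remodeller, was at 186, 177, 194 and 173 CPM in negative and 158, 191, 118 and 182 CPM in positive replicates 1 to 4 and did not pass (log2 fold change -0.19, SE 0.12, adjusted p = 0.360 with edgeR).

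Among 18 ion channel genes 3 were higher and 2 lower, beside 3.71% and 4.72% of all genes. Kcnj11, the pore of the ATP-sensitive potassium channel that couples glucose to hormone release, was at 47.1, 23.7, 24.6 and 21.0 CPM in negative and 64.4, 43.7, 45.9 and 36.0 CPM in positive replicates 1 to 4. Kcnj11 overlapped through negative replicate 1 (log2 fold change 0.75, SE 0.11, adjusted p = 0.00119 with edgeR), and EV_RIP libraries were at 33.6 to 55.4 CPM. Kcnk16, an islet two-pore-domain potassium channel (0.66), and Ryr2, an intracellular calcium release channel (1.08), were higher, and Kcnk3 (-0.62), a related potassium channel, and Cacna1c (-0.33), a voltage-gated calcium channel, were lower. Of these, Kcnk16 lost its call without replicate 1 or 2, Ryr2 without replicate 1, 2 or 4, and Cacna1c without any 1 of the 4.

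Cells with the empty vector did not sit on one side of the sorted groups. Among the 850 genes lower in positive cells, the EV_RIP mean was below both sorted groups for 301 (35.4%), above both for 245 (28.8%) and between them for the rest. Among the 667 genes higher in positive cells, it was below both for 211 (31.6%) and above both for 107 (16.0%). Among genes that did not pass, the EV_RIP mean was below both for 40.4% and above both for 42.5%. These are levels only, with no test between EV_RIP and the sorted groups. EV_RIP replicate 4 enters these means with outlying values for several genes.

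The unsorted cells share no library with the sorted ones, and the largest rises and falls named above repeated there only in part. Of the rises, Ins2, Spp1, Vstm2l, Speg, Islr, Aqp1 and Dse rose there too. Hapln1, Car13, Sema3a, Klhl4, Lcp2, Mme, Cd209c and G6pc2 did not pass there. Of the falls, Ppp2r2b, Dnhd1 and Lsamp fell there too. Hspa1a, Rn7sk, Hspa1b, Adam8, Zfp750, Atf3, Mctp2, Atg9b, Stbd1, Ephx1, Snhg15 and Mdm2 did not pass there. In unsorted shSmndc1 against EV, 1315 of 18202 genes were higher (7.22%) and 1366 lower (7.50%). Without EV replicate 3 these counts were 71 and 110, without EV replicate 2 they were 249 and 301, and without shSmndc1 replicate 2 they were 337 and 290. Of 1466 genes called between the sorted groups and tested in both experiments, 73.8% had the same sign, against 60.7% of all 17485 genes tested in both. The share was 78.9% among genes called higher and 69.6% among genes called lower. Within these sets the log2 fold changes of both comparisons had Pearson correlations of 0.44 (higher) and -0.21 (lower). Of the 1466 genes, the unsorted comparison called 432 with the same sign and 25 with the opposite sign. Of all 17485 genes it called 2033 with the same sign and 533 with the opposite sign. The likeness differed by pair: over all genes, 72.2% had the unsorted sign in pair 1, 58.2% in pair 2, 54.1% in pair 3 and 50.2% in pair 4. Without replicate 1 the share among called genes was 59.7%. Genes are not independent replicates, so these shares are descriptions.

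Unsorted cells with the shRNA had more Ins2 (log2 fold change 3.21, adjusted p = 0.00750 with edgeR), more Mafa (1.35, adjusted p = 0.0185 with edgeR), more Spp1 (1.87, adjusted p = 0.00880 with edgeR), more Vstm2l (2.11) and more Speg (1.75) than unsorted EV cells. Gcg had a log2 fold change of 0.58 there and did not pass (adjusted p = 0.136). Msn, the membrane linker moesin, fell in both comparisons, by 2.36 in unsorted cells and by 1.10 between sorted groups, as did Pgam1, a glycolytic mutase (by 1.84 and 0.67), and Vegfa, the angiogenic growth factor (by 1.38 and 0.85). Mdm2 (0.46, adjusted p = 0.249), Atf3 (0.59, adjusted p = 0.293) and Hspa1b (adjusted p = 0.998), which fell between sorted groups, did not pass in unsorted cells. In unsorted cells p53 targets had a median log2 fold change of 0.27 and immediate-early genes one of 0.30, while heat shock genes stood at -0.22 and integrated stress response genes at -0.33. The difference between both experiments was not tested.

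**Figure D5:**
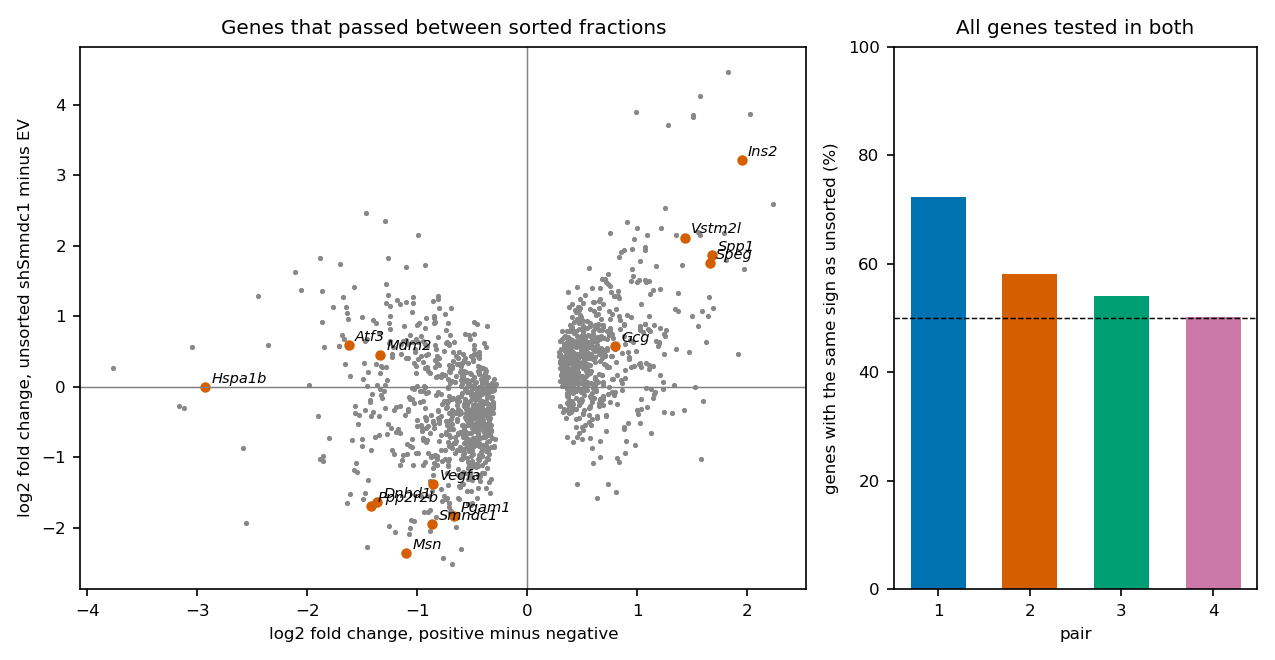
Left, log2 fold change between sorted groups (x axis) and between unsorted shSmndc1 and EV (y axis) for the 1466 genes that passed between sorted groups and were tested in both, with some genes named. Right, percent of all 17485 genes whose difference in each pair has the sign seen in unsorted cells, with a dashed line at 50%, which pair 4 meets (50.2%) and pair 1 exceeds (72.2%).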

How the data were processed

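Per the labels' protocols, stranded mRNA libraries of alphaTC1 cells were sequenced as paired 75 bp reads. The authors deposited 1 table of raw counts per Ensembl gene for each experiment (55487 genes), whole numbers with no scaling, and FPKM tables, per the file headers. The deposited FPKM values were used to compare levels between genes and, as counts over FPKM, to rank genes by relative length. STAR 2.7.5a, Picard 2.19.2 and DESeq2 1.30.0 with the GRCm38/mm10 build are named in the submitters' processing notes. Which tool did what, and how counting treated strand, is not given in the sources used here, so reads from overlapping genes cannot be told apart. Among 132 genes named or tabulated, 9 share over 10% of exonic bases with a gene on the opposite strand (Hspa1a 19.0%, Ptbp1 20.7%, Jund 52.6%, Cebpb 20.7%, Ccna2 12.5%, Dbp 18.0%, Fdft1 18.3%, Hmgcs1 12.1%, Aldh1l2 14.1%).

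Counts were analysed in R 4.3.3. The 8 sorted libraries went through filterByExpr and TMM scaling before the test in edgeR 4.0.16 (glmQLFit and glmQLFTest, group plus replicate number as a block), with Benjamini-Hochberg adjustment over all 17994 genes and a threshold of 0.05. Fold changes and SE are from this fit. Levels are CPM on TMM-scaled sizes of the 12 reporter libraries. The 6 unsorted libraries were fitted separately, without a block. Same-numbered sorted libraries deviated together from their group means (correlations 0.65, 0.39, 0.15 and 0.36 over tested genes, all above the minimum of 0.1 set for pairing). They were therefore treated as pairs. Negative 2 with positive 4 (0.31) and negative 4 with positive 2 (0.16) also exceeded that minimum and the value of replicate 3. The other mismatched pairings lay between -0.52 and 0.05. Each library correlated most with the one of its own number, but the pairing is loose for replicate 3. Of the 8 libraries, negative replicate 3 was the shallowest, which limits the precision of its low values. The procedure was tested on simulated data. Alternatives were no block, the block with EV_RIP added, DESeq2 1.42.0, limma 3.58.1 voom with quality weights, other scaling and filters, each replicate number left out, and pairs 1 and 2 alone. Robust moderation and the 11-library fit were added after seeing the data.

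Named genes were a fixed set (Smndc1, Ins1, Ins2, Gcg, Pdx1, Mafa, Atrx, Spp1, Mdm2 and Hspa1b), the 15 genes that rose and the 15 that fell most on the log2 scale (past the threshold, same direction in 4 of 4 pairs, mean of at least 5 CPM, no predicted genes), and up to 4 members of each of 34 gene lists with the smallest p. Other list members are named as examples and were picked after values had been seen. The groups, the members and the lists were chosen with earlier results of these data known, so list counts are descriptions. Some genes that the rule or the lists hold are not reported here. Promoter sequences are from RefSeq (GRCm38.p6) and were searched on both strands for the heat shock core GAANNTTC, the cyclic AMP element TGACGTCA, the AP-1 site TGANTCA, the E-box CACGTG, the insulin E-box GCCATCTG and the TATA motif TATAAA, of which the last 2 were added after the data were seen. Gene coordinates are the deposited ones, and 54821 of 55487 match GENCODE M21.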

Additional observations from a re-analysis of the deposited data

Results flagged for a closer look

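Of 264 sets of 4 libraries looked at (132 genes in negative and in positive cells), 9 had 1 library far from the other 3. By chance about 1 in 20 would, and 9 of 264 do not exceed that share, so the values below are descriptions. Negative replicate 1 was the distant library for 4 genes. It was highest for Elavl4 at 55.7 CPM (others 33.7 to 37.0), for Kcnj11 at 47.1 CPM (others 21.0 to 24.6) and for Kcnk16 at 17.9 CPM (others 7.21 to 8.77). It was lowest for Cdt1, a replication licensing factor, at 62.4 CPM (others 124 to 137). Lsamp, a cell adhesion protein, was highest in negative replicate 3 at 26.3 CPM (others 7.46 to 8.73), the shallowest library.

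Among positive libraries, replicate 4 was highest for Ephx1 at 8.19 CPM (others 4.28 to 4.81) and for Pgam1 at 112 CPM (others 74.0 to 80.2). The cholesterol synthesis gene Cyp51 was lowest in positive replicate 3 at 193 CPM (others 238 to 241). Msmo1, another gene of that pathway, was highest in positive replicate 1 at 43.8 CPM (others 30.9 to 31.4).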

How the results depend on the processing

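All 1517 calls between sorted groups kept their sign in every alternative in which they were tested, while the number of calls varied. The alternatives reuse the same libraries, so a kept sign is no separate support. With no replicate block 0 genes were higher and 0 lower, with 1229 of the 1517 at an unadjusted p under 0.05. With the block over 12 libraries the counts were 22 and 56, over 11 libraries without EV_RIP replicate 4 they were 400 and 511, in pairs 1 and 2 alone 44 and 48, and with limma voom quality weights 1314 and 1540. Without a filter on low counts 1116 were higher. Leaving out each replicate number gave 90 to 698 higher and 182 to 882 lower genes, lowest without replicate 2 and at 418 and 435 without replicate 4. The causes were not tested, although fewer pairs give fewer degrees of freedom. RLE scaling, a filter of 1 CPM, DESeq2 and robust moderation stayed within 1.5 times. Of 130 named genes that passed, 66 passed with each replicate number left out in turn. None of the named genes changed sign.

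For unsorted cells the same numbers did not pair libraries (correlations -0.03, -0.01 and 0.26), and the replicate block gave 1343 and 1470 calls. DESeq2 called 2027 higher genes, and without a filter 2024 were higher and 2141 lower. Leaving out each library gave 71 to 1547 higher and 110 to 1789 lower. The share of called genes with the unsorted sign was 59.7% to 79.6% with a replicate number left out and 83.7% in pairs 1 and 2 alone, and could not be computed with no replicate block. At this depth Ins1 (0 counts in 2 negative libraries) and Foxa1 rest on few counts.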

Other observations

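Of 24 tested G2 and M phase genes 4 were higher in reporter-positive cells and none lower, with a median log2 fold change of 0.22, beside 3.71% of all genes higher and 4.72% lower: Aurkb, a mitotic kinase (0.52, SE 0.09, from 83.1 ± 7.71 to 119 ± 10.6 CPM, SD, n = 4 each), Ccna2, cyclin A2 (0.44), Cdk1, the mitotic cyclin-dependent kinase (0.42), and Bub1b, a spindle checkpoint kinase (0.36). Aurkb passed with each replicate number left out, and the others did not pass without replicate 2 or without replicate 4. Without replicate 1, 8 members were higher. Mki67, a proliferation marker, was at 967 ± 46.2 CPM (SD, n = 4) in negative and 997 ± 213 CPM (SD, n = 4) in positive cells. Of 24 G1/S and DNA replication genes 1 was higher and 1 lower, with a median of 0.07. Mitochondrially encoded genes had a median of 0.31, with 2 of 12 higher, beside 3.71% of all genes (mt-Atp6, 0.68, and mt-Co3, 0.54), neither called without replicate 2. Without replicate 1, 6 of these genes were higher.

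Cholesterol synthesis genes were lower in 6 of 22 cases (median -0.23), beside 4.72% of all genes, led by Hsd17b7 (-0.73) and Msmo1 (-0.72), which were the 2 members called without replicate 2, 3 or 4. Of hypoxia-induced genes, 3 of 10 were lower, beside the same 4.72%: Vegfa (-0.85, from 82.0 ± 16.0 to 45.0 ± 7.11 CPM, SD, n = 4 each), Ndrg1 (-0.69) and P4ha1 (-0.49), the last lost without replicate 2, 3 or 4. Among extracellular matrix and adhesion genes, Msn (-1.10) was lower and the integrin Itga6 (0.40) higher, the latter lost without any 1 of the 4 replicate numbers. Interferon response genes Irf1 (0.66) and Mx1 (1.55) were higher among 15 tested, beside 3.71% of all genes, both lost without replicate 1 or 2, Mx1 also without replicate 4. Relative gene length was taken from counts over the deposited FPKM. With genes ranked by this length into 4 equal bins, the longest bin (4499 genes) had 240 higher and 267 lower genes. The shortest bin (4499 genes) had 69 and 130, beside 8.43% of all genes called in either direction. Median log2 fold changes were -0.015 in the longest and 0.0087 in the shortest bin, but pairs differed. From shortest to longest, the median difference ran from -0.087 to 0.029 in pair 1 and from 0.107 to -0.089 in pair 3. In pairs 2 and 4 it stayed between -0.021 and 0.019. The part of length in the calls was not tested.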
